A study of Mus musculus with 8 samples.

Results

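The lungs of OVA-challenged mice on standard feed (Ctrl-F) were compared with those of mice never exposed to the allergen (NT). The arrays were chosen by their titles, and 4 of the 8 arrays of the study entered the comparison, 2 NT and 2 Ctrl-F, each from 1 mouse. The study examined whether capsules of synthetic DNA given in the feed alter allergic airway inflammation to ovalbumin (OVA), and its other 4 arrays, from the Cap-F and ODNcap-F groups, came from challenged mice on supplemented feed. All mice were female BALB/c, bought at 4 weeks of age, housed for 2 weeks and then fed for 70 days. Ctrl-F mice received intraperitoneal injections of 1 µg OVA with 2 mg aluminum gel on Days 42, 49 and 56. From Day 63 to Day 69 these mice inhaled an aerosol of 2% OVA for 30 min a day. Lung RNA came from Day 70, which was 24 h after the final inhalation. NT mice ate the same standard feed and received no OVA.

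Inhaled allergen in a sensitized mouse draws eosinophils, lymphocytes, monocytes and dendritic cells into the lung, and antibody-secreting plasma cells form there. Cytokines of the type 2 kind turn airway secretory cells toward mucus production, and macrophages take on an alternatively activated state with high chitinase-like proteins. The gas-exchange tissue around the airways consists of thin alveolar type 1 cells, surfactant-making type 2 cells, a dense capillary bed and fibroblasts, all of which share the same RNA sample with the incoming cells.

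Of all probes, 64.8% and 65.0% were well above background in the NT mice, and 62.2% and 62.3% in the Ctrl-F mice. The correlation between the mice of a group, over probes, was 0.996 in NT and 0.994 in Ctrl-F. Values below are log2 signals after quantile normalization, in the order mouse 1 and mouse 2 of each group. The identity of the tissue was clear from its markers. Sftpc, the surfactant protein of type 2 cells, read 17.60 and 17.60 in NT and 17.64 and 17.64 in Ctrl-F. Scgb1a1, the main secretory protein of club cells, read 17.64 and 17.64 in NT and 17.60 and 17.52 in Ctrl-F, and Ager, a receptor abundant on type 1 cells, 17.04 and 17.06 in NT and 16.10 and 16.32 in Ctrl-F. The first pair sat at the top of the scale, where quantile normalization leaves little room for a difference. With 2 mice per group an exact two-sided permutation test of 1 gene cannot give a p below 0.333, so calls rest on a limma fit that pools the spread over genes and over the 8 arrays. A gene was called when its Benjamini-Hochberg adjusted p was under 0.05 and its fold change over 2.

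OVA challenge altered the lung transcriptome widely. Of 16571 genes tested, 3864 (23.3%) were called, 1872 (11.3%) higher and 1992 (12%) lower in Ctrl-F. With normexp background correction 2493 were called, 1278 higher and 1215 lower. The changes were unequal in size. Among the called genes, 845 rose and 332 fell by more than 4-fold, and 159 rose and 12 fell by more than 16-fold. The median difference over the tested genes was -0.095. Calls also held with any 1 of the 4 mice left out for 1632 of the higher and 1476 of the lower genes. Detection changed as well, since 282 genes were well above background in both Ctrl-F mice and in neither NT mouse, and 438 in both NT mice and in neither Ctrl-F mouse. Genes were also sorted into 61 lists of pathways and cell types. Counts in a list are over its members with a probe, some of which were too dim to test. They stand against 11.3% higher and 12% lower of all tested genes. A list below had 0 calls by limma in a direction 24 times. In all 24 the count was also 0 at an unadjusted p under 0.05 with the same fold, and in 23 by the local-pooled-error test, which called 1 club cell gene higher. The lung was measured whole, so that fewer cells of a type and less RNA per cell cannot be told apart.

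**Figure D1:**
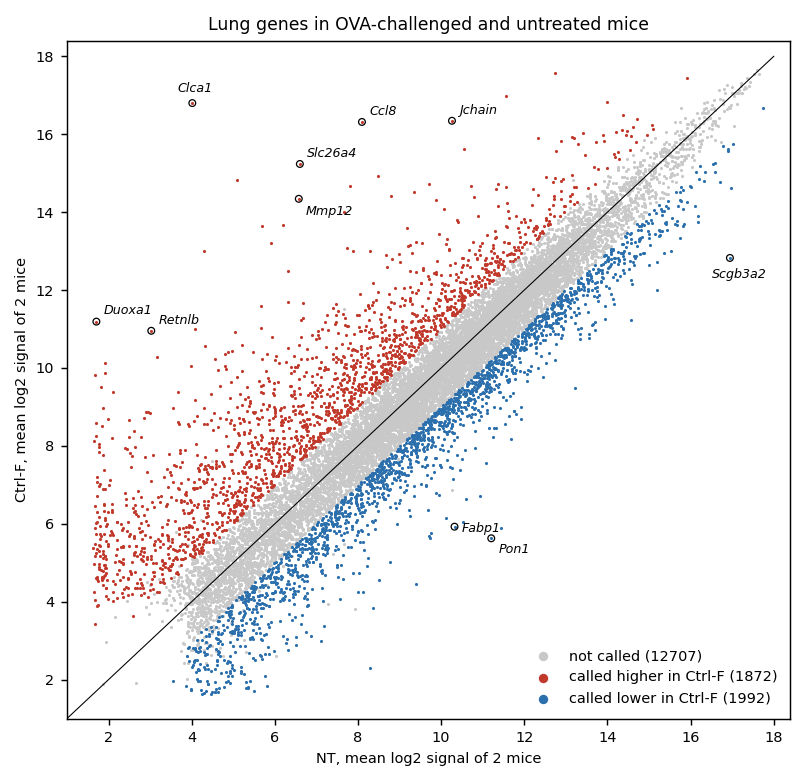
Mean log2 signal of each of 16571 tested genes in the 2 NT mice (horizontal) and the 2 Ctrl-F mice (vertical), with called genes in color and the line of equal signal. Some genes far above the line, among them Slc26a4 and Ccl8, reach signals of 14 to 17 in Ctrl-F, and others, such as Duoxa1, stay lower. Few genes lie as far below the line.

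The steepest increases were sought among genes that were detected in all 4 mice and stayed called with any 1 of them left out. Slc26a4 encodes pendrin, an anion exchanger at the airway surface, and read 6.66 and 6.54 in NT and 15.18 and 15.29 in Ctrl-F, a difference of 8.64 (adjusted p 4.26e-06). Ccl8, a chemokine for monocytes and lymphocytes, read 8.24 and 7.95 in NT and 16.06 and 16.57 in Ctrl-F (adjusted p 4.92e-06). Mmp12, the elastase of macrophages, read 6.51 and 6.64 in NT and 14.68 and 14.01 in Ctrl-F (adjusted p 1.01e-05). For each of these genes both Ctrl-F mice lay far above both NT mice. The collagenase Mmp13 rose by 6.24 and the eotaxins Ccl24 and Ccl11 by 6.85 and 6.17. Fxyd4, a regulator of the sodium pump, rose by 7.49, and AA467197, a small mitochondrial protein, by 7.96. The lectin Itln1 and the chitinase-like Chil4 rose by 6.34 and 7.31. Mzb1, a chaperone of antibody secretion, rose by 6.45. The uncharacterized Gm15056 gave the widest difference among them, 9.72.

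The deepest decreases under the same conditions were in genes of several kinds. Scgb3a2, a secretoglobin of club cells, read 16.79 and 17.10 in NT and 12.95 and 12.70 in Ctrl-F (adjusted p 6.57e-05), a loss from among the brightest signals on the array. Pon1, a paraoxonase that hydrolyzes lactones and organophosphates, read 11.12 and 11.29 in NT and 5.52 and 5.73 in Ctrl-F (adjusted p 4.85e-06). The NT and Ctrl-F mice did not overlap in either gene, as in 86.5% of all tested genes. Cidec, a lipid droplet protein, fell by 4.48 and the fatty acid binding protein Fabp1 fell by 4.40. On the side of receptors, the AMPA glutamate receptor subunit Gria1 fell by 4.11, the formyl peptide receptor Fpr1 fell by 4.01 and the scavenger receptor Marco fell by 3.98. The remaining genes of this group were Krtap17-1, a keratin-associated protein, which fell by 4.95, Faim2, an inhibitor of Fas-induced death, which fell by 3.997 on its brightest probe and was not called on the other (-0.69), the secreted Slurp1, which fell by 3.96, and the cystatin Cst8, which fell by 3.87.

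Some genes appeared in Ctrl-F from below detection. Duoxa1, the maturation factor of a dual oxidase that makes hydrogen peroxide at the airway surface, read 1.70 and 1.71 in NT and 11.07 and 11.31 in Ctrl-F, at least 189-fold higher against the detection floor. Retnlb, a resistin-like protein of mucous cells, was at least 161-fold higher. Speer2, AY761185 and Ankrd55 were higher by at least 90.1-fold, at least 73.4-fold and at least 59.4-fold. Ddx4, a helicase best known from germ cells, was at least 75.8-fold higher, the matrix protein Thbs4 at least 53.7-fold and the fucosyltransferase Fut1 at least 40.7-fold. In the other direction bounds were smaller. Il22ra2, a soluble receptor that captures IL-22, read 7.01 and 7.36 in NT and 3.30 and 3.43 in Ctrl-F and was at least 9.02-fold lower in Ctrl-F. Upk3a, a uroplakin of a club cell subset, was at least 6.33-fold lower and Insyn2a, an inhibitory synapse protein, at least 6.84-fold. The heart transcript Mhrt was at least 6.61-fold lower. The muscle gene Mb was at least 19.3-fold lower, Myoz2 at least 8.44-fold and Dhrs7c at least 7.23-fold, and fat-derived Adipoq at least 6.52-fold. These last 4 calls were not kept with each mouse left out. Mb lost its call without any 1 of the 4 mice (differences from -6.52 to -5.45). Dhrs7c and Adipoq lost theirs without any of the 4 or either ODNcap-F mouse, which changes only the pooled spread (from -4.44 to -3.09 and from -3.02 to -2.39). Myoz2 lost its call without NT mouse 1, NT mouse 2, Ctrl-F mouse 1 or either ODNcap-F mouse (from -4.73 to -3.05).

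**Figure D2:**
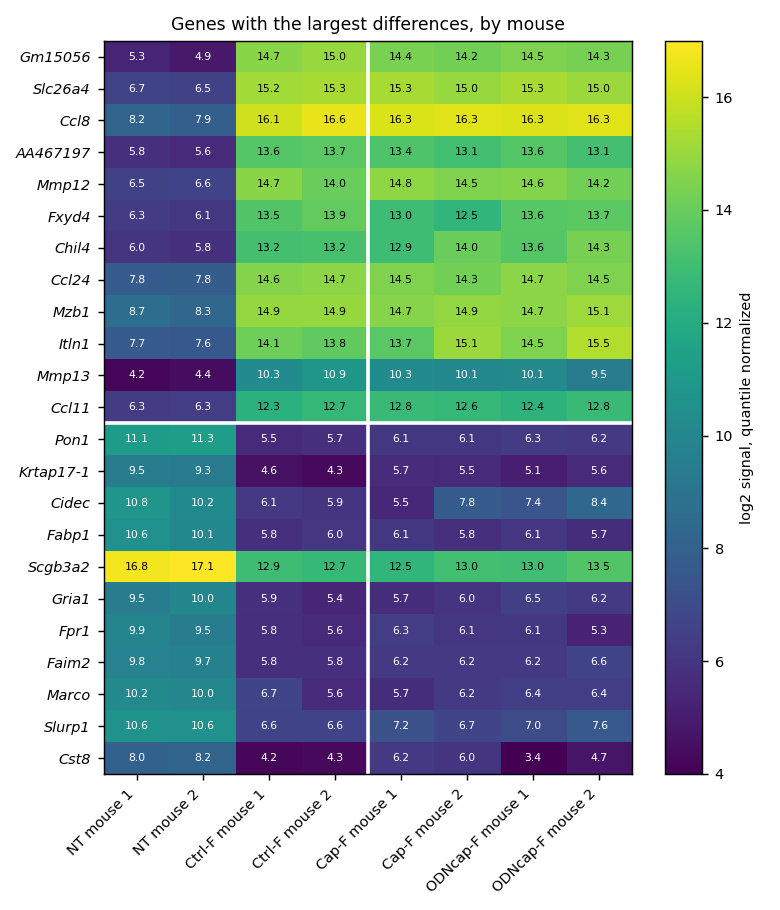
Log2 signal, as color and number, of the 12 genes that rose most and 11 of the 12 that fell most between NT and Ctrl-F, among those detected in all 4 mice whose calls held with any 1 of them left out, for each of the 8 mice. Columns 1 to 4 are the mice compared here, and the Cap-F and ODNcap-F columns show the same genes in the challenged mice on supplemented feed.

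Cell division had the largest share of called members among the lists described here. Of 28 mitosis genes 27 were called higher and 0 lower, with a median difference of 3.51, and the remaining gene, Hmmr, named after its value was seen, was not called on its brightest probe (0.86, adjusted p 0.000319) and was called higher on its 2 others, up to 4.996. The mean signal of the list was 6.98 and 6.99 in NT and 10.41 and 10.33 in Ctrl-F. Top2a, the topoisomerase that untangles sister chromosomes, read 7.60 and 7.70 in NT and 11.43 and 11.32 in Ctrl-F (adjusted p 4.85e-06). Cdk1, the kinase that starts mitosis, read 4.61 and 5.21 in NT and 9.20 and 9.24 in Ctrl-F (adjusted p 2.84e-05). Ncapg, a condensin subunit, rose by 4.60, and the spindle checkpoint kinase Ttk, not detected in NT, was at least 17.8-fold higher. DNA replication had 26 of 28 members higher, 0 lower and a median of 2.15. Its early-acting members differed in size. The helicase subunit Mcm2 rose by 1.85, the helicase loader Mcm10 by 3.47, the ribonucleotide reductase subunit Rrm2 by 3.70 and the S-phase cyclin Ccne1 by 3.90.

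Promoters of mitosis genes often carry a cell cycle homology region, here spelled TTTGAA, and CCAAT boxes, and those of replication genes an E2F-type element, here GCGGGAA. These letters were sought on both strands in the 300 bases around the first RefSeq start of each gene, which 24 of 28 mitosis and 23 of 28 replication genes have. TTTGAA stood in 18 of the 24 mitosis promoters (75%), in 3 of the 23 replication promoters and in 18.1% of 27025 promoters of all genes. CCAAT stood in 22 of the 24, in 14 of the 23 and in 37.9% of all. GCGGGAA divided the lists the other way, with 1 of the 24, 11 of the 23 and 4.66% of all. The promoters of Top2a (chr11:99024140-99024439, minus strand), Cdk1 (chr10:69352863-69353162, minus strand) and Ncapg (chr5:45669675-45669974, plus strand) are shown for the mitosis genes that rose most or define the list. They come from RefSeq on GRCm38.p6, run 5′ to 3′ along the gene, and have TTTGAA and CCAAT, or their reverse complements, in capitals.
Top2a: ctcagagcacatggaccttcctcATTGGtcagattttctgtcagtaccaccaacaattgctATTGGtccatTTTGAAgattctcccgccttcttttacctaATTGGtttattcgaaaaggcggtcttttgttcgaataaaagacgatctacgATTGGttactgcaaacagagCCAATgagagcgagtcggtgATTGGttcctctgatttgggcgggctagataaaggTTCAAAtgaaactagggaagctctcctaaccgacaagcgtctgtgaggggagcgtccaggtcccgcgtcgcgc
Cdk1: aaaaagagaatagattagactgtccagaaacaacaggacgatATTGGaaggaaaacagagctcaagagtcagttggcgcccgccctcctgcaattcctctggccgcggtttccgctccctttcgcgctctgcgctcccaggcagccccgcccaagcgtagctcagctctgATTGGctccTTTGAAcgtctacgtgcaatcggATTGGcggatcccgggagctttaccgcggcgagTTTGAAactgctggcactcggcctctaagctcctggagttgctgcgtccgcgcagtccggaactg
Ncapg: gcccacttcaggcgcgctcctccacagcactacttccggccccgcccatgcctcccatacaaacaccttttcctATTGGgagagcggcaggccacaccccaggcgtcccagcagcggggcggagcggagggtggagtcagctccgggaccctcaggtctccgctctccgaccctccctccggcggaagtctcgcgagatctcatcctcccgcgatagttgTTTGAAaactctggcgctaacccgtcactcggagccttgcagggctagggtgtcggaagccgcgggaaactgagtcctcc
A match of letters is a description and says nothing of which factor binds.

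Genes of cell growth had smaller differences than those of division. Ribosome biogenesis had 3 of 22 members called higher and 0 lower, or 1 higher by normexp, at a median of 0.52. Nucleolin, Ncl, and fibrillarin, Fbl, differed by 0.67 and 0.68, under the fold required. The other probe of Ncl had the opposite sign and was not called (-0.35). The growth regulator Myc rose by 1.92, reading 7.42 and 7.36 in NT and 9.34 and 9.28 in Ctrl-F (adjusted p 2.33e-05), and Wdr43, of the small-subunit processome, rose by 1.13. The other called member was Nop58 (1.01, not called without NT mouse 1 at 0.95 or Ctrl-F mouse 1 at 0.99). The 3 other probes of Nop58 were not called, the lowest being at 0.89. Glycolysis had 2 members higher and 1 lower of 24, but 4 higher without Ctrl-F mouse 1 and 6 with scaling to the 75th percentile. The hexokinases Hk2 and Hk3 rose by 2.02 and 2.30, while Pdk4, which holds back pyruvate oxidation, fell by 1.45. Lactate dehydrogenase, Ldha, was not called (difference 0.31, adjusted p 0.00665).

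Markers of antibody-producing cells rose in most cases. Of 22 B and plasma cell markers 17 were higher and 0 lower, with a median of 2.12. Jchain, the joining chain of secreted IgA and IgM, read 10.43 and 10.09 in NT and 16.35 and 16.34 in Ctrl-F (adjusted p 4.85e-06). Mzb1 read 8.70 and 8.27 in NT and 14.95 and 14.93 in Ctrl-F (adjusted p 7.75e-06). Both mice of Ctrl-F lay more than 5 above both NT mice in each gene. Among Fc receptors and antibody transporters 8 of 14 were higher and 0 lower. The inhibitory receptor Fcgr2b rose by 3.48 and the B cell receptor-like Fcrl1 by 2.51, and Fcamr, a receptor for IgA and IgM, was at least 7.06-fold higher. Pigr, which carries IgA across epithelium, was not called on its brightest probe (-0.22, adjusted p 0.0712), whereas another probe of the gene rose by 3.45.

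The secretory pathway rose in part. Of 25 genes of the unfolded protein response and protein secretion, 11 were higher and 0 lower, with a median of 0.77. Sdf2l1, a cofactor in the endoplasmic reticulum, read 9.52 and 9.60 in NT and 12.51 and 12.61 in Ctrl-F (adjusted p 4.05e-05). Creld2, a disulfide-handling protein induced by unfolded proteins, read 13.88 and 13.96 in NT and 15.75 and 15.89 in Ctrl-F (adjusted p 0.000851), and the isomerase Pdia4 rose by 2.08. The central chaperone Hspa5 read 14.91 and 15.004 in NT and 15.42 and 15.62 in Ctrl-F, a difference under 2-fold (adjusted p 0.0372). However, 2 other probes of the gene were called, the larger difference being 1.20. Many promoters of this pathway carry an endoplasmic reticulum stress element, CCAAT followed after 9 bases by CCACG. It stood on either strand in 7 of the 22 members with a promoter (31.8%) and in 35 of 27025 promoters of all genes (0.130%). Creld2 (chr15:88819396-88819695, plus strand) and Hspa5 (chr2:34771840-34772139, plus strand), the defining members, are shown from RefSeq GRCm38.p6 with the element in capitals, reverse complemented in Creld2.
Creld2: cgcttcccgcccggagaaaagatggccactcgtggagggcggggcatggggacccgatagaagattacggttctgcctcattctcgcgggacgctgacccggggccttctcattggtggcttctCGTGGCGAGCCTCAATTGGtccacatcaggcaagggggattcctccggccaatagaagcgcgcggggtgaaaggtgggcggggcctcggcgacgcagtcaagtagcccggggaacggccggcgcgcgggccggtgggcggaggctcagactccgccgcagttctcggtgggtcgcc
Hspa5: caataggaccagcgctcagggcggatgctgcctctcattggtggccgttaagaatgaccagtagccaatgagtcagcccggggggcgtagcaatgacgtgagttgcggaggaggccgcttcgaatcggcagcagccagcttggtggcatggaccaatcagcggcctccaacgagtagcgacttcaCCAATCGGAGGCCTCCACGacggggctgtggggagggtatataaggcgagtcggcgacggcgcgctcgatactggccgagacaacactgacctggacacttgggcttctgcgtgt
A match here, too, is only a match of letters.

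T cell genes rose in some cases. Cd3e, part of the T cell receptor complex, and Cd4, the helper coreceptor, differed by 0.60 and 0.44 (adjusted p 0.0156 and 0.0121). Both were under 2-fold and not called. The groups did not overlap in either gene, as in 86.5% of all tested genes. The inhibitory receptor Pdcd1 read 3.99 and 5.37 in NT and 9.64 and 9.44 in Ctrl-F (adjusted p 0.000249). Tigit and Ctla4, also inhibitory, were not detected in NT and were at least 7.14-fold and at least 5.40-fold higher. Lef1, a transcription factor of resting T cells and of Wnt signaling, fell by 1.48. In the whole list 9 of 24 genes were higher and 1 lower. This count and the next stand against 11.3% higher and 12% lower of all tested genes. Cytotoxic and natural killer genes had 3 higher and 3 lower of 18, though 1 was higher without NT mouse 2 or with scaling to the 75th percentile, and with normexp background correction 1 was higher and 0 lower. The protease inhibitor Cst7 rose by 2.96, and the natural killer receptors Ncr1 and Klrb1c fell by 1.24 and fell by 1.16. The other called members lay close to 2-fold, namely Gzmk (1.07, not called without NT mouse 2 at 0.90 or Ctrl-F mouse 1 at 0.98), Ifng (1.02, not called without NT mouse 2 at 0.88) and Klre1 (-1.07, not called without NT mouse 1 at -0.86 or Ctrl-F mouse 1 at -0.81), whose other probe was not called (-0.44). Granzyme B, Gzmb, and the granule protein Nkg7 were not called (-0.34 and -0.44, adjusted p 0.0846 and 0.0297).

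Ligands and receptors of the TNF family include many that lymphocytes use to help one another. Of 36 members 17 were higher and 1 lower. Tnfrsf9, the costimulatory receptor 4-1BB, read 5.09 and 4.85 in NT and 10.36 and 10.51 in Ctrl-F (adjusted p 4.85e-06). Tnfrsf17, a survival receptor of plasma cells, rose by 4.88, and the ligand Tnfsf11, or RANKL, was at least 7.24-fold higher. Tnfrsf19 fell by 1.45 on its brightest probe, its other probe was not called (-0.12), and with the mean of a gene's probes 0 members were lower. Tnf itself read 5.28 and 6.62 in NT and 7.27 and 7.25 in Ctrl-F and was called at an adjusted p of 0.0315, but the call was lost without NT mouse 1 (0.64), Ctrl-F mouse 1 (1.30), Ctrl-F mouse 2 (1.32) or either ODNcap-F mouse (1.31). The death ligand Tnfsf10 was not called (-0.85), except without NT mouse 1 (-1.06), where 2 members were lower.

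Granulocyte genes were counted by cell type. Of 15 eosinophil markers 14 were higher and 0 lower. The granule peroxidase Epx, below detection in NT, read 3.46 and 1.77 in NT and 8.22 and 8.55 in Ctrl-F and was at least 27.2-fold higher. Cebpe, a transcription factor of granule formation, rose by 4.71. The surface lectin Siglecf, which alveolar macrophages also carry, was not called on its brightest probe (0.95, adjusted p 0.00391), while its other probe was called at 1.13. Mast cell and basophil genes had 8 of 15 higher and 1 lower, and 2 lower without NT mouse 1, NT mouse 2 or Ctrl-F mouse 2. Those higher were 4 with normexp or with probes well above background on all arrays, and 3 in the deposited log2 values. Mcpt1, a protease of mucosal mast cells, read 1.74 and 2.44 in NT and 8.08 and 8.35 in Ctrl-F, at least 24.1-fold higher. The mast cell carboxypeptidase Cpa3 rose by 1.45, the cytokines Il4 and Il6 by 3.90 and 3.92, and the transcription factor Gata2 fell by 1.31. The basophil protease Mcpt8 differed widely between the NT mice, at 7.83 and 5.19 in NT and 6.76 and 6.62 in Ctrl-F, and was called higher without NT mouse 1 (1.501), lower without NT mouse 2 (-1.14) and not called with all mice. Neutrophil markers had 3 higher and 2 lower of 17, against 11.3% higher and 12% lower of all tested genes. The calprotectin genes S100a8 and S100a9 were lower in both Ctrl-F mice and not called (-0.86 and -0.91, adjusted p 0.0682 and 0.0412). Those called higher, Ltf (2.59), Lcn2 (2.38) and Retnlg (2.21), include antimicrobial genes that epithelium also expresses. The members called lower were Ngp (-2.40, not called without Ctrl-F mouse 1 at -2.28) and Camp (-1.97, not called without Ctrl-F mouse 1 at -1.84 or Ctrl-F mouse 2 at -2.09), granule genes of immature neutrophils. Of the neutrophil list 5 were higher without NT mouse 1.

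Macrophage genes were counted in a recruited and a resident list. Markers of monocytes and recruited macrophages had 14 of 20 higher, 1 lower and a median of 2.77. The chemokine receptor Ccr2 rose by 1.25, and F13a1, a coagulation factor subunit of monocytes, fell by 1.15. Resident alveolar macrophage markers moved both ways, with 7 higher and 4 lower of 18. Marco read 10.20 and 10.04 in NT and 6.73 and 5.55 in Ctrl-F (adjusted p 0.000353), and the lipid genes Cidec and Fabp1 and the surface protein Plet1 (-1.56) fell beside it. In the same list the chitinase-like Chil3 rose by 2.84, the integrin Itgax by 3.37 and the oxidized lipoprotein receptor Olr1 by 3.30. Lysosomal genes rose in most cases, with 16 of 25 genes higher and 0 lower. Cathepsin K, Ctsk, read 10.83 and 10.63 in NT and 14.63 and 14.71 in Ctrl-F (adjusted p 1.2e-05), cathepsin E, Ctse, rose by 2.61, and Gpnmb, a glycoprotein of phagocytes, by 4.14.

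Genes of antigen presentation rose in most cases. Of 16 genes of MHC class II presentation 12 were higher and 0 lower. H2-Aa, a class II chain, read 10.35 and 10.03 in NT and 11.79 and 11.76 in Ctrl-F (adjusted p 0.000265). The peptide-editing chains H2-DMb2 and H2-Oa rose by 2.44 and 2.43, and the invariant-chain protease Ctss by 2.11. Ciita, the transactivator of the class II genes, rose by 1.24, a call lost without NT mouse 2 (0.97). Dendritic cell genes had 10 of 18 higher and 0 lower. The growth factor receptor Flt3 rose by 1.36, and Xcr1, of cross-presenting cells, was at least 2.36-fold higher. Il4i1, an amino acid oxidase, read 10.04 and 9.71 in NT and 14.30 and 14.31 in Ctrl-F (adjusted p 1.54e-05), and the transcription factor Batf3 and the lectin Cd209d rose by 3.86 and 2.95.

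Interferon-stimulated genes were called at a share near the 23.3% of all tested genes. They had 4 of 23 higher and 1 lower, at a median of 0.11, and 2 were lower without Ctrl-F mouse 1. Isg15 and Irf7, which most interferons induce, were not called (0.44 and -0.0076, adjusted p 0.351 and 0.988). The genes that rose included ones that interferon gamma induces, the chemokines Cxcl9 (5.71) and Cxcl10 (2.60) and the GTPase Iigp1 (1.39). The others called were Oas1a (1.15, not called without Ctrl-F mouse 1 at 0.81) and Ifit3 (-1.11, not called without NT mouse 1 at -1.13 or NT mouse 2 at -1.08 or Ctrl-F mouse 2 at -0.90). Toll-like receptors and adaptors had 6 higher and 1 lower of 22. Tlr12, Tlr1 and the lipopolysaccharide coreceptor Cd14 rose by 1.69, 1.43 and 1.30, and the flagellin receptor Tlr5 fell by 1.36. Tlr4, for lipopolysaccharide, and Tlr9, for CpG DNA, were not called (0.60 and -0.056, adjusted p 0.00123 and 0.550). Complement had 8 higher and 1 lower of 26, the latter being the adipocyte protease Cfd (-4.21), whose call was lost without NT mouse 1, NT mouse 2, Ctrl-F mouse 1 or either ODNcap-F mouse (from -4.42 to -2.65). C3, the central component, read 15.97 and 15.87 in NT and 17.42 and 17.46 in Ctrl-F (adjusted p 3.18e-05), and its inactivating protease Cfi rose by 4.91. The anaphylatoxin receptor C3ar1 rose by 3.87 and C1qa, of the initiating complex, by 2.86, whereas C4b was not called (-0.28, adjusted p 0.0977).

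Chemokines for several kinds of leukocyte rose. Of 29 CC chemokines and receptors 23 were higher and 2 lower. Ccl24 read 7.79 and 7.84 in NT and 14.58 and 14.75 in Ctrl-F (adjusted p 4.85e-06) and Ccl11 read 6.31 and 6.34 in NT and 12.32 and 12.67 in Ctrl-F (adjusted p 7.11e-06). These eotaxins act on eosinophils through 1 shared receptor. Ccl1, a ligand for activated helper cells, was at least 31.3-fold higher, and Ccl27a, an epithelial chemokine, fell by 1.62 and was not called on 1 of its 3 probes (-0.18), with Ccl28 (-1.25, not called without NT mouse 1 at -0.80 or Ctrl-F mouse 2 at -1.19) also called lower. Among CXC and related chemokines 13 of 22 were higher and 4 lower. The neutrophil attractants Cxcl5 and Cxcl1 rose by 5.92 and 2.21, and Cxcl3, below detection in NT, was at least 20.1-fold higher. Cxcl13, which places B cells in follicles, read 8.50 and 8.22 in NT and 12.002 and 11.37 in Ctrl-F (adjusted p 0.000146). Cxcl14 fell by 1.74, the fractalkine Cx3cl1 fell by 1.15, and a further gene called lower was the receptor Cxcr1 (-1.27, not called without NT mouse 1 at -1.14 or Ctrl-F mouse 2 at -1.11). The brightest probe of Cxcl12 fell by 1.35, while another probe of the gene rose by 1.68, so the gene is given no direction.

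**Figure D3:**
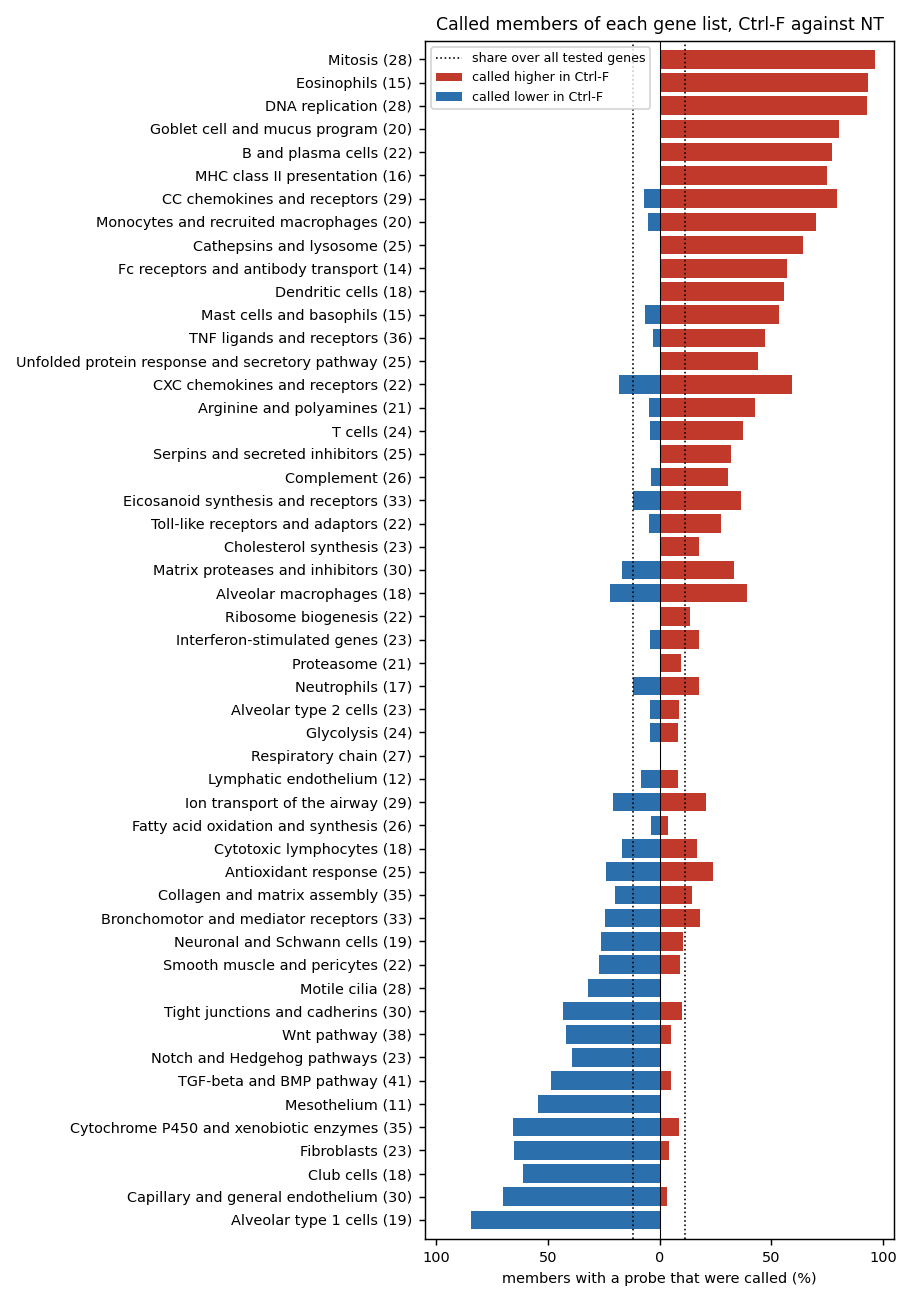
Share of the members of each pathway and lung cell type list called higher (red, to the right) or lower (blue, to the left) in Ctrl-F than in NT, with the number of members with a probe in brackets and dotted lines at the shares over all tested genes, 11.3% and 12%. Shares of a list are over its members with a probe, some too dim to test, whereas the dotted lines are over tested genes. Lists of division, eosinophils and mucus lie at the top and lists of alveolar type 1 cells, endothelium and club cells at the bottom.

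In the airway epithelium, most mucous genes rose and most club cell genes fell. Of 20 goblet cell and mucus genes 16 were higher and 0 lower, at a median of 3.47, with 1 lower without NT mouse 1. Clca1, a secreted protease of mucus, read 2.65 and 5.38 in NT and 16.91 and 16.68 in Ctrl-F (adjusted p 9.08e-05), a wide spread in NT and a very bright signal in both Ctrl-F mice. The gel-forming mucin Muc5ac read 4.63 and 4.48 in NT and 10.54 and 9.93 in Ctrl-F (adjusted p 0.000531). Club cell genes had 0 of 18 higher and 11 lower, at a median of -1.25, with 1 higher without NT mouse 2. Scgb1a1 was not called (-0.081), whereas Scgb3a2 and the glutathione transferase Gsta3 fell by 4.12 and fell by 3.34. Of 28 motile cilia genes 9 were lower and 0 higher, at a median of -0.92. Those lower were 5 with normexp and 11 with scaling to the 75th percentile. The count fell by more than 1 gene without NT mouse 1, NT mouse 2 or Ctrl-F mouse 2, and rose without Ctrl-F mouse 1. Whether ciliated and club cell genes differed in their change was not tested. Every one of the 28 cilia genes had a negative difference, from -1.99 to -0.049. The microtubule protein Tppp3 fell by 1.99 and the axonemal Dnali1 and Spag6l fell by 1.18 and fell by 1.16. The master regulator Foxj1 and the dynein Dnah5 were not called (-0.496 and -0.61, adjusted p 0.183 and 0.104).

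Enzymes of xenobiotic metabolism, many of them made in club cells, fell in most cases. Of 35 cytochrome P450 and conjugating enzymes 23 were lower and 3 higher, at a median of -1.73. Cyp2f2, which bioactivates naphthalene, read 16.68 and 16.73 in NT and 14.70 and 14.83 in Ctrl-F (adjusted p 0.000200). The ethanol-oxidizing Cyp2e1 fell by 3.97. Cyp1a1, a target of the aryl hydrocarbon receptor, fell by 1.73, a call lost without NT mouse 1 (-1.74) or NT mouse 2 (-1.72). A few enzymes rose. Cyp4f18, which inactivates leukotriene B4 in leukocytes, read 10.18 and 10.11 in NT and 13.33 and 13.30 in Ctrl-F (adjusted p 1.14e-05), and Cyp7b1, which makes an oxysterol that guides B cells, and Cyp1b1 rose by 1.72 and 1.45. Antioxidant genes split, with 6 higher and 6 lower of 25, and 3 higher in the deposited log2 values or with only probes detected on all arrays. The oxidase Duox1, partner of Duoxa1, was at least 37.5-fold higher, heme oxygenase, Hmox1, rose by 2.32 and the cystine carrier Slc7a11 by 4.86. Catalase, Cat, fell by 1.51, the peroxiredoxin Prdx6 fell by 1.34 and the oxidase Nox4 fell by 1.86. Nqo1, a quinone reductase, was called lower (-1.04), but not without NT mouse 1 (-0.99) or Ctrl-F mouse 1 (-0.84).

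Transport and barrier genes changed in both directions. Ion and water transport had 6 higher and 6 lower of 29, of which 22 were bright enough to test. Besides Slc26a4 and Clca1, the sodium-glucose carrier Slc5a1 was at least 12.4-fold higher. The epithelial sodium channel subunit Scnn1g fell by 1.54, and the water channels Aqp5 and Aqp1 fell by 1.54 and fell by 1.43. The chloride channel Cftr was not called (0.13, adjusted p 0.521). Tight junction and cadherin genes had 13 lower and 3 higher of 30, and 1 higher by normexp, in the deposited log2 values or with probes well above background on all arrays. Claudins differed among themselves, as the pore-forming Cldn2 was at least 3.55-fold higher, Cldn4 rose by 1.62 and a further call was Cldn22 (3.62, not called without NT mouse 1 at 2.65 or Ctrl-F mouse 1 at 3.71 or Ctrl-F mouse 2 at 3.52), while Cldn8 fell by 2.36 and the alveolar Cldn18 fell by 1.13. The cadherins Cdh13 and Cdh16 fell by 2.23 and fell by 1.80, the other probe of Cdh16 not being called (0.15), and E-cadherin, Cdh1, was not called (-0.19, adjusted p 0.115). Secreted protease inhibitors had 8 of 25 higher and 0 lower. Slpi, which blocks neutrophil elastase, read 12.87 and 12.60 in NT and 17.56 and 17.60 in Ctrl-F (adjusted p 4.85e-06), among the brightest signals after challenge. Wfdc17 rose by 3.92, Serpina3n by 3.33 and Serpinb2 by 3.74.

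The alveolar epithelium divided by cell type. Of 19 type 1 cell markers 16 were lower and 0 higher, at a median of -1.46, and the mean signal of the list went from 13.44 and 13.49 in NT to 11.97 and 12.19 in Ctrl-F. Hopx, a cofactor of type 1 identity, read 15.20 and 15.33 in NT and 13.35 and 13.48 in Ctrl-F (adjusted p 3.6e-05). Akap5, a kinase anchor, fell by 1.97, the protease inhibitor Timp3 fell by 1.89 and Vegfa, the growth factor that sustains capillaries, fell by 1.95. Ager, the other defining marker, was lower in both Ctrl-F mice but under 2-fold on its brightest probe (-0.84, adjusted p 0.000688), while 2 of its 5 probes were called, down to -1.39. Few type 2 cell genes were called, with 2 higher and 1 lower of 23. Without NT mouse 2, 2 were lower. Sftpb was not called on its brightest probe (-0.54, adjusted p 0.000761), while its other probe was called at -1.61. The alarmin Il33, made by type 2 cells among others, rose by 2.21, and lysozyme 2, Lyz2, shared with macrophages, fell by 1.31. The other call was the chitinase-like Chil1 (1.06, not called without NT mouse 2 at 0.93 or Ctrl-F mouse 2 at 0.99).

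Genes of endothelium, capillary and general, fell in most cases. Of 30 endothelial markers 21 were lower and 1 higher, at a median of -1.27. Tmem100, a membrane protein of lung capillaries, read 12.75 and 12.74 in NT and 9.81 and 10.62 in Ctrl-F (adjusted p 0.000409). The angiopoietin receptor Tek read 11.71 and 12.10 in NT and 9.74 and 10.12 in Ctrl-F (adjusted p 0.000265). The adhesion molecule Pecam1 was not called (-0.77, adjusted p 0.00161), and the carbonic anhydrase Car4 was called only without NT mouse 1 (-1.03) or Ctrl-F mouse 2 (-1.16), against -0.95 with all mice. The exception was Ackr1, a chemokine-binding receptor of venules where leukocytes leave the blood, which read 5.03 and 5.17 in NT and 7.90 and 8.05 in Ctrl-F (adjusted p 6.15e-05). Lymphatic markers had 1 higher and 1 lower of 12. Without NT mouse 2 or Ctrl-F mouse 1, 2 were higher, and without Ctrl-F mouse 2, 3 were lower. The matrix protein Reln rose by 2.59 and the receptor Flt4 fell by 1.38, while the defining Prox1 and Lyve1 were not called (-0.10 and -0.45, adjusted p 0.760 and 0.132).

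**Figure D4:**
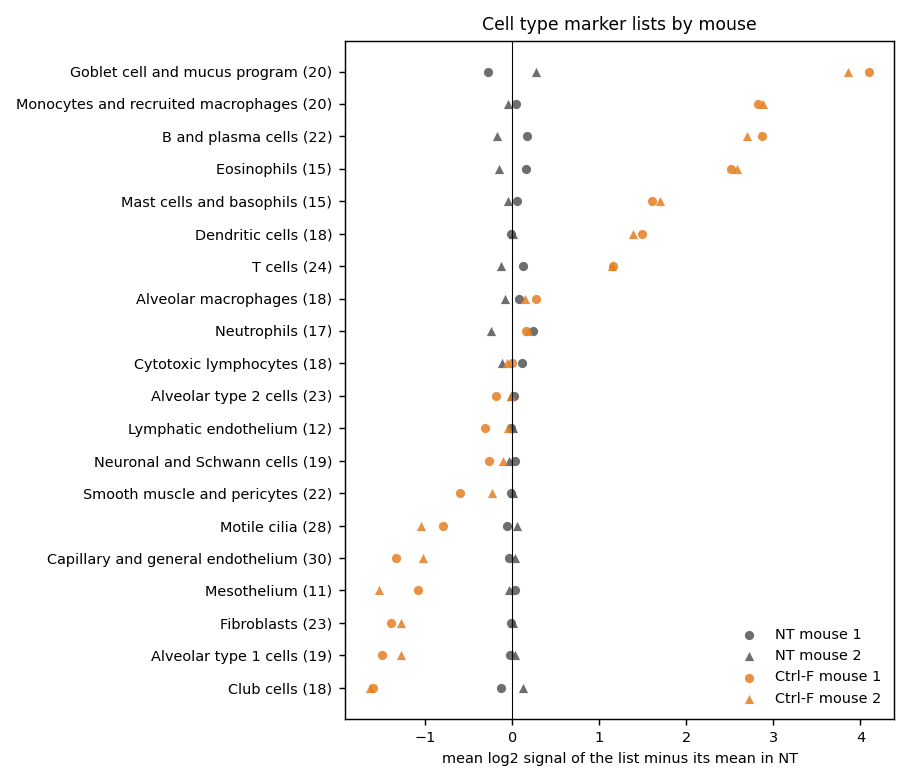
Mean log2 signal of the markers of each cell type in every NT and Ctrl-F mouse, relative to the mean of the NT mice, with the number of markers in brackets. The 2 mice of a group lie close to each other beside the distance between groups for most lists, and the lists of neutrophils, cytotoxic lymphocytes and alveolar type 2 cells lie near 0.

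Mesenchymal cells gave a mixed picture. Fibroblast markers fell, 15 of 23 being lower and 1 higher at a median of -1.43, the exception being the collagen Col14a1 (1.05, not called without NT mouse 2 at 0.96 or Ctrl-F mouse 2 at 0.85). Pdgfra, the receptor of alveolar fibroblasts, read 12.98 and 12.96 in NT and 11.25 and 11.46 in Ctrl-F (adjusted p 6.55e-05). Tcf21, a transcription factor of lipofibroblasts, fell by 1.95, the bright methyltransferase Inmt fell by 2.34, the proteoglycan Lum fell by 2.88 and the ferritin receptor Scara5 was at least 3.92-fold lower. Smooth muscle and pericyte genes had 2 higher and 6 lower of 22, and 3 lower without Ctrl-F mouse 1. The contractile Myh11 and Acta2 were not called (0.19 and 0.43, adjusted p 0.427 and 0.104), although a dimmer probe of Acta2 was called at 1.11. The pericyte regulator Rgs5 rose by 2.87, the coactivator Myocd (1.16, not called without Ctrl-F mouse 2 at 0.85) was called as well, the integrin Itga8 fell by 2.51 and Notch3 fell by 1.33. Mesothelial markers fell in 6 of 11 cases and rose in 0. Msln and Upk3b, surface proteins of that lining, fell by 1.38 and fell by 2.67, the transcription factor Bnc1 fell by 1.97 and the Wnt agonist Rspo1 fell by 1.85.

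Collagen genes were called in both directions, against 11.3% higher and 12% lower of all tested genes. Of 35 collagens and assembly enzymes 5 were higher and 7 lower, with 2 higher by normexp. Col6a5, a collagen VI chain, read 6.11 and 6.51 in NT and 11.58 and 11.82 in Ctrl-F (adjusted p 1.27e-05), fibrillar Col3a1 rose by 1.28, the crosslinking Loxl4 by 2.04 and tenascin C, Tnc, by 1.78. Col1a1 was not called (0.504, adjusted p 0.0203). Col12a1 fell by 2.49, with its other probe not called (-1.48), the lysyl hydroxylase Plod2 fell by 1.45 and the basement membrane chain Col4a3 fell by 1.33. Proteases and their inhibitors had 10 higher and 5 lower of 30. Alongside Mmp12 and Mmp13, Timp1, an inhibitor of both, read 9.45 and 9.24 in NT and 14.40 and 14.62 in Ctrl-F (adjusted p 5.08e-06). Timp3 moved the opposite way, as given for type 1 cells, and the proteases Adam33 and Adamts2 fell by 1.49 and fell by 1.28. The other genes called lower were Adamts5 (-1.36, not called without NT mouse 2 at -1.08 or Ctrl-F mouse 2 at -1.12) and Timp2 (-1.08, not called without Ctrl-F mouse 1 at -0.99). Probes of Timp2, Adam33 and Adamts2 that were not called lay at 0.11, -0.69 and -0.998. Nerve and Schwann cell genes had 2 higher and 5 lower of 19, and 1 higher and 3 lower by normexp. Pmp22 fell by 1.52 and Prx fell by 1.46, and a further gene called lower was Stmn2 (-1.21, not called without Ctrl-F mouse 1 at -0.94). The calcium-binding S100b rose by 1.14 and the transcription factor Egr2, also active in lymphocytes and macrophages, by 3.64.

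Most called genes of developmental signaling were lower. TGF-beta and BMP genes had 20 of 41 lower and 2 higher, at a median of -0.97. Bmp4, a ligand that sustains alveolar and vascular cells, read 13.53 and 13.86 in NT and 12.08 and 12.30 in Ctrl-F (adjusted p 0.000354). Ltbp4, which stores latent TGF-beta in the matrix, read 15.19 and 15.18 in NT and 11.96 and 12.03 in Ctrl-F (adjusted p 3.36e-05). The signal transducer Smad9 fell by 2.54 and the coreceptor Tgfbr3 fell by 2.10. The genes that rose form a ligand and its antagonist, as Inhba, the activin A subunit, rose by 4.19 and follistatin, Fst, by 2.91. Tgfb1 was not called (0.66, adjusted p 0.000740). In the Wnt pathway 16 of 38 were lower and 2 higher, with 11 lower and 0 higher by normexp and 1 higher in the deposited log2 values or with only probes detected on all arrays. The ligand Wnt3a and the inhibitor Wif1 fell by 1.92 and fell by 2.16, whereas Rspo2, an agonist, was at least 3.52-fold higher and the secreted modulator Sfrp1 rose by 1.28. Axin2, a target of Wnt signaling, was called lower (-1.03), but not without NT mouse 2 (-0.86) or Ctrl-F mouse 2 (-0.89). The other probe of Axin2 was not called (-1.47). Wnt2 was called only without NT mouse 1 (-1.02) or Ctrl-F mouse 2 (-1.08), against -0.98 with all mice. Notch and Hedgehog genes had 9 of 23 lower and 0 higher. The Notch targets Heyl and Hes1 fell by 1.32 and fell by 1.27, and Notch1 and Shh were not called (0.46 and -0.15, adjusted p 0.0423 and 0.628).

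**Figure D5:**
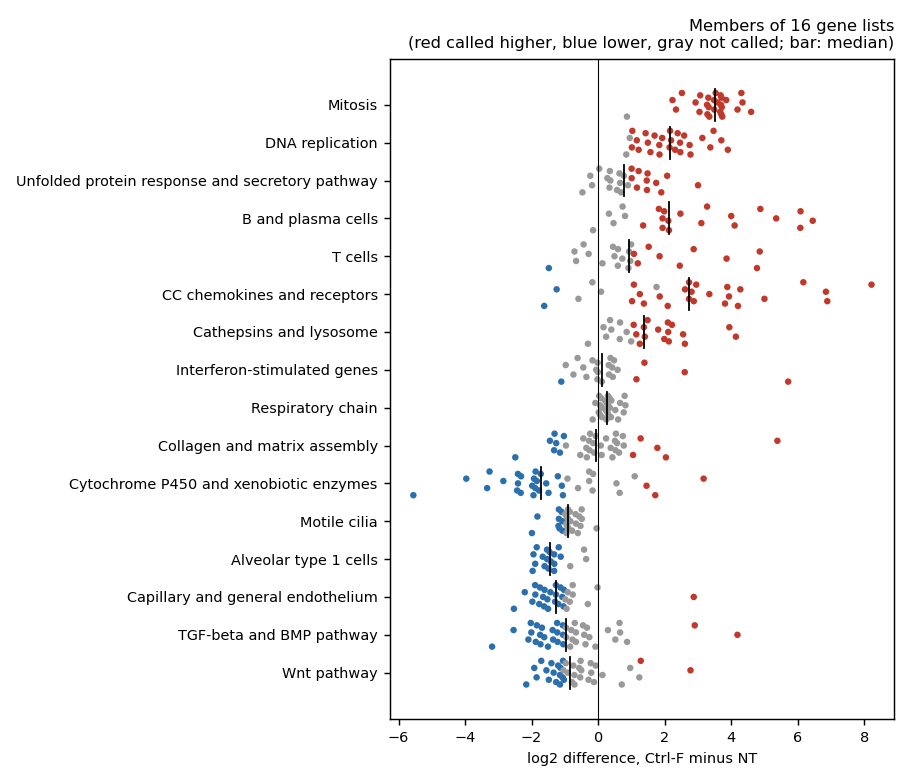
Log2 difference between Ctrl-F and NT (horizontal) for every member with a probe of 16 lists, with members called higher in red, lower in blue and not called in gray, and the median as a bar. Mitosis genes and type 1 cell genes lie on opposite sides of 0, and the respiratory chain lies close to it.

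Few genes of energy metabolism were called. Of 27 respiratory chain genes 0 were called higher and 0 lower by limma, with differences from -0.17 to 0.82. The local-pooled-error test called 0 as well, and 1 was called with scaling to the 75th percentile. With no minimum fold, 18 members passed in limma at an unadjusted p under 0.05 and 17 at an adjusted p under 0.05. Over all genes, 10777 of 16571 passed at that adjusted p with no minimum fold. Ndufs1, of complex I, read 12.22 and 12.29 in NT and 12.53 and 12.57 in Ctrl-F, and Sdha, of complex II, 12.94 and 12.93 in NT and 13.04 and 13.02 in Ctrl-F. Fatty acid metabolism had 1 higher and 1 lower of 26, the coactivator Ppargc1b, which rose by 1.27, and the receptor Ppara, which fell by 1.49. The synthase Fasn was not called (-0.17, adjusted p 0.175). Cholesterol synthesis had 4 of 23 higher and 0 lower. Mvd, Dhcr7 and Cyp51 rose by 1.44, 1.28 and 1.18. The proteasome list had 2 of 21 higher and 0 lower, the immunoproteasome subunit Psmb8 (1.24) and the peptide transporter Tap1 (1.20), and the constitutive Psma1 was not called (0.43, adjusted p 0.00328).

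Pathways of arginine and arachidonic acid held more calls. Arginine and polyamine genes had 9 of 21 higher and 1 lower, the latter being the endothelial synthase Nos3 (-1.04, not called without NT mouse 1 at -0.90 or Ctrl-F mouse 1 at -0.85), and 2 were lower without Ctrl-F mouse 2. The nitric oxide synthase Nos2 read 8.52 and 8.36 in NT and 11.52 and 11.99 in Ctrl-F (adjusted p 0.000354), and Gatm, which starts creatine synthesis, rose by 4.62. Eicosanoid genes had 12 higher and 4 lower of 33. The lipoxygenase Alox15, found in eosinophils and macrophages, read 4.86 and 5.34 in NT and 9.66 and 9.86 in Ctrl-F (adjusted p 2.6e-05). Alox12e rose by 5.09, the phospholipase Pla2g5 was at least 20.0-fold higher, and Alox12 fell by 2.37. Hpgd, which inactivates prostaglandins, fell by 2.21, the prostacyclin synthase Ptgis fell by 1.51 and the prostaglandin receptor Ptgfr fell by 2.07. The leukotriene enzyme Alox5 was called only without NT mouse 1 (1.07) or Ctrl-F mouse 1 (1.003), against 0.99 with all mice.

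Receptors that set airway tone moved in both directions. Of 33 receptors 6 were higher and 8 lower, with 4 lower by normexp and 5 in the deposited log2 values or with only probes detected on all arrays. The adrenergic receptor Adrb1 fell by 1.71. The muscarinic autoreceptor Chrm2 was at least 2.88-fold lower, and Chrm3, which contracts airway muscle, was called lower only without NT mouse 2 (-1.04), against -0.89 with all mice. The endothelin receptor Ednrb fell by 1.90. The serotonin receptor Htr2b rose by 3.18, the adenosine receptor Adora3 by 2.51 and the nucleotide receptor P2ry6 by 1.97.

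Genes of other tissues and of handling were counted too, against the 11.3% and 12% of all tested genes called higher and lower. Counts are over members with a probe, not all of which were bright enough to test. Those tested were 13 of 15 in adipocytes, 7 of 10 in red blood cells and 6 of 10 in thymocytes. In skeletal muscle 10 of 14 were tested, and in airway cartilage and basal cells 10 of 13. The part of these genes in the results above was not tested. Cardiomyocyte genes had 9 of 18 lower and 1 higher, at a mean signal of 8.85 and 7.97 in NT and 6.41 and 6.96 in Ctrl-F, but 1 was lower without NT mouse 1 or Ctrl-F mouse 1, 5 without Ctrl-F mouse 2 and 7 without NT mouse 2. The count was 5 with no filter on dim probes, 12 with NT and Ctrl-F arrays alone and 14 by the local-pooled-error test. The myosin Myh6 read 13.83 and 12.62 in NT and 9.06 and 9.92 in Ctrl-F, and Tnnt2, a troponin, 10.89 and 10.01 in NT and 7.11 and 7.66 in Ctrl-F. Both calls were lost without any 1 of the 4 mice, and that of Myh6 also without either ODNcap-F mouse, with differences from -4.34 to -3.13 for Myh6 and from -3.51 to -2.63 for Tnnt2. The troponin Tnni3 fell by 2.62, and Corin, a protease that activates natriuretic peptide, moved the other way and rose by 5.37. Adipocyte genes had 7 of 15 lower and 1 higher, with 4 lower without NT mouse 1, NT mouse 2 or Ctrl-F mouse 1 or with no filter on dim probes. The exception was Retn (1.05, not called without NT mouse 2 at 0.81 or Ctrl-F mouse 2 at 0.97) on its brightest probe, while its other probe was called lower at -4.09. The mean signal was 8.21 and 8.05 in NT and 6.61 and 6.95 in Ctrl-F. Plin1, of lipid droplets, was at least 3.33-fold lower, a call lost without any 1 of the 4 mice (from -3.44 to -2.73). Plin4 and Thrsp fell by 2.45 and fell by 2.07.

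Red blood cell genes had 6 of 10 lower and 0 higher, at a mean signal of 9.54 and 9.07 in NT and 7.91 and 7.83 in Ctrl-F. Hba-a1, a globin, read 17.35 and 17.46 in NT and 17.27 and 17.22 in Ctrl-F and was not called on that probe, though its other probe was called at -1.17, while Hbb-b1 fell by 1.92, the heme enzyme Alas2 fell by 1.93 and the blood group antigen Kel was at least 1.46-fold lower. Of the thymocyte genes, Rag1 was detected in no mouse and Dntt was called only without NT mouse 1 (1.02, against 0.58). Of 10 members 1 was lower and 0 higher, or 1 higher without NT mouse 1. Skeletal muscle had 2 higher and 2 lower of 14, and 1 lower without any 1 of the 4 mice. With normexp 1 was higher and 1 lower, and in the deposited log2 values or with probes well above background on all arrays 1 was higher and 0 lower. Its defining Acta1 and Ckm were not called (0.49 and -1.38, adjusted p 0.125 and 0.222), Pvalb rose by 2.17, Neb was at least 3.87-fold higher and Myh2 at least 1.29-fold lower, with Mb the other gene called lower. Genes of airway cartilage and basal cells had 4 higher and 2 lower of 13. The cartilage collagen Col2a1 rose by 1.55, Comp by 2.47 and the basal cell receptor Ngfr by 2.59, the transcription factor Sox9 was at least 18.1-fold higher, Snai2 and Cytl1 fell by 1.19 and fell by 1.11, and Krt5 was too dim to test.

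Immediate early genes had 1 higher and 4 lower of 15. Fos and Egr1 were not called (0.28 and 0.020, adjusted p 0.424 and 0.954), Atf3 rose by 3.36, and Ier3, Dusp1 and Nr4a2 fell by 1.46, fell by 1.44 and fell by 1.38, with Ccn1 (-1.06, not called without NT mouse 2 at -0.81 or Ctrl-F mouse 2 at -0.89) the other gene called lower. Heat shock genes had 2 of 15 lower and 0 higher, Hspb1 (-1.93) and Cryab (-1.35), and the inducible Hspa1a and Hsph1 were not called (0.051 and -0.22, adjusted p 0.945 and 0.677). Glucocorticoid-responsive genes had 2 higher and 5 lower of 16, with those lower reduced to 3 without NT mouse 1. Tsc22d3 fell by 1.25, with its other probe not called (-0.88), Sult1a1 fell by 1.78 and the metallothionein Mt2 rose by 1.19. Fkbp5 was not called on its brightest probe (0.54, adjusted p 0.0195) and was at 1.17 on another. Besides Pdk4 and Lcn2, the other called members were Zbtb16 (-2.11, not called without NT mouse 1 at -1.84) and Klf9 (-1.18, not called without NT mouse 1 at -0.97). Clock genes had 10 of 17 lower and 1 higher, Nfil3 (2.05), with Dbp, Nr1d1 and Per2 at -1.97, -2.16 and -1.89, the other probe of Per2 not called (-0.52), and Arntl not called (0.24, adjusted p 0.329). The time of day at which each mouse was sampled is not in the labels, and the part of handling or time in these values was not tested.

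The genes with the largest changes among those detected in all 4 mice, whose calls held with any 1 of them left out, were also measured in the challenged mice on supplemented feed. Cap-F and ODNcap-F were each compared with Ctrl-F directly, and the comparisons share the Ctrl-F arrays. Over the 12 of these genes that rose most, the difference lay between -0.91 and 0.37 in Cap-F and between -0.77 and 0.99 in ODNcap-F. Over the 12 of them that fell most, it lay between -0.17 and 1.83 in Cap-F and between -0.17 and 1.86 in ODNcap-F. Among the former Itln1 was at 0.37 and 0.99 and Fxyd4 at -0.91 and -0.0085 in Cap-F and ODNcap-F. Cst8 (1.83) in Cap-F and Cidec (1.86) in ODNcap-F were the widest differences among the latter. In limma none of the 24 was called against Ctrl-F in either group, and at an unadjusted p under 0.05 with the same fold 2 were in Cap-F and 1 in ODNcap-F. Over all tested genes limma called 0 in each, with smallest adjusted p of 0.0967 and 0.0881, against 121 and 86 at an unadjusted p.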

How the data were processed

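The intensities were background-subtracted per array by the authors with Agilent Feature Extraction 11.0 before deposit. Their log2 was quantile normalized here over the 8 arrays, with 792 outlier spot values set to missing and 0 saturated. The deposited log2 table, quantile normalized by the authors (32312 probes, all column medians 8.55), served as an alternative. Of 56605 probes, 32994 (58.3%) have a gene name. The 37116 that stood well above background in both mice of any group were tested with limma 3.58.1 (R 4.3.3, data.table version 1.17.8, statmod 1.5.0), with 4 group means, residual df 4, prior df 1.96 and prior SD 0.103. A gene stands for its brightest kept probe. Of 336 named genes tested, 110 have several kept probes, 24 a probe with another call and 2 (Cxcl12, Retn) one of opposite direction. Bounds are against each array's lowest signal well above background. The 61 lists hold 1305 genes, 19 without a probe. Named are the first 2 members of each list, up to 3 higher and 3 lower with the largest changes that held with any 1 of the 4 mice left out, the 12 genes with the largest changes each way among those detected in all 4 mice whose calls held likewise, and the 8 with the largest bounds each way among those detected in 1 group alone. Members and lists were chosen with earlier results of these data known, and Hmmr and the remaining members of small counts after their values were seen. Some genes of this rule are not reported here. The local-pooled-error test was rebuilt from its definition (100 bins, spline df 10) and the analysis tested on simulated data. Histology, lavage, quantitative PCR and fecal sequencing were not analyzed.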

Additional observations from a re-analysis of the deposited data

How the results depend on the processing

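Normexp background correction with offset 50 lowered the number of called genes to 2493 and of lower genes to 1215, against 3864 and 1992, and 2480 of its calls were shared in direction with those reported. The other settings, among them an unadjusted p and an intensity trend in the variance, gave 3098 (deposited log2 values) to 4304 (any probe of a gene) called genes. Leaving out 1 array gave 3641 to 3886 called genes, 1808 to 1879 higher and 1819 to 2010 lower, with the mouse that remains of that group assumed to vary like the other groups. The replicate number as a block gave 3862, and the correlation of deviations by replicate number was 0.017 between NT and Ctrl-F and from -0.012 to 0.16 over all pairs of groups. Of 122 list counts, normexp moved 19 by more than 1.5 times or to or from 0, the deposited log2 values moved 9, a filter for signal on all arrays 9, the 75th percentile 7, no filter 4, the mean of a gene's probes 4, the local-pooled-error test 2, and NT and Ctrl-F arrays alone 1. Where the report does not give such a move, it was by 1 gene, among those lower in neutrophils, CC chemokines, complement, Toll-like receptors, type 2 cells, lymphatics, interferon-stimulated genes, arginine genes and serpins and those higher in smooth muscle, fibroblasts and adipocytes. With 1 array left out, 13 moved without Ctrl-F mouse 2, 12 without NT mouse 1, 12 without NT mouse 2, 9 without Ctrl-F mouse 1 and 1 without either ODNcap-F mouse. The list medians changed sign with the scaling in 2 of 61 lists, matrix proteases and serpins. Of the named genes whose direction turned in a setting, Retn and Cxcl12 had been called. With the mean of a gene's probes Cxcl12 was at 0.16, Retn at -1.52, Pigr at 1.62 and Irf7 at 0.051. With the 75th percentile Fasn was at 0.21, Irf7 at 0.10, Pigr at 0.12 and Sftpc at -0.057. With normexp Egr1 was at -0.0021, Mcpt8 at -0.072 and Prox1 at 0.018. With 1 array left out the lowest and highest differences were -0.14 and 0.18 for Egr1, -0.091 and 0.66 for Fos, -0.087 and 0.19 for Hspa1a, -0.38 and 0.36 for Irf7, -1.14 and 1.501 for Mcpt8, -0.095 and 0.46 for Myh11, -0.35 and 0.16 for Prox1, -0.39 and 0.095 for Shh, and -0.11 and 0.0012 for Tlr9. The cause of these shifts was not tested.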
